A study of Mus musculus with 6 samples.

Results

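The Hippo pathway and its YAP target programme, represented by 10 genes, were followed in AML12 cells, an immortalised mouse hepatocyte line, after over-expression of the zinc-finger transcription factor Zac1. The genes were taken by name and not by a cut on their values, but with earlier results of these data known. They are Yap1, Wwtr1, Tead1, Lats2, Amotl1, Amotl2, Ccn1 (also written Cyr61), Ccn2 (also written Ctgf), Ankrd1 and Axl. All 10 were found among the 49585 genes of the count table, and all 10 exceeded the minimum mean count of 10 reads needed for testing. The Zac1 group was transfected with a construct carrying the Zac1 open reading frame, the EGFP group with one carrying the open reading frame of the fluorescent protein EGFP. RNA was measured 24 h later by polyA RNA-seq, with 3 libraries per group, numbered 4, 5 and 6 (Zac1) and 1, 2 and 3 (EGFP). Both groups are the same cell line and differ in the labels only by the construct. The labels do not state whether the 3 libraries of a group are separate cultures; the p-values therefore cover the variation among these libraries alone, possibly technical. Each library is a bulk sample, so transfected and untransfected cells, and fewer cells of a type and less RNA per cell, cannot be told apart.

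The Hippo pathway is a kinase cascade that restrains tissue growth. The MST kinases activate the LATS kinases, which phosphorylate the co-activators YAP (Yap1) and TAZ (Wwtr1) and keep them out of the nucleus. Unphosphorylated YAP and TAZ bind the TEAD factors on DNA and switch on genes such as Ccn1, Ccn2, Ankrd1 and Axl, and also Lats2 and Amotl2, which act back on YAP as brakes. In the liver the pathway limits organ size and keeps hepatocytes differentiated. Most of this control acts through phosphorylation and location of the proteins, neither of which was measured here.

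Total counts were 16104498 to 18302538 reads in the Zac1 libraries and 14801240 to 15145092 reads in the EGFP libraries. Plagl1, which encodes Zac1, was read 106033, 135108 and 148382 times in Zac1 replicates 4, 5 and 6, against 39, 79 and 67 times in EGFP replicates 1, 2 and 3. Zac1 replicate 4 and EGFP replicate 1 stood apart from the other 4 libraries on the second principal component (15.5% of the variance), at 11.6 and 18.7 against -10.6 to -3.51. Of 10 hepatocyte markers, 6 could be tested; Hnf4a and Foxa2 were expressed, Ttr, the transthyretin gene, fell (42.4 ± 4.46 CPM in Zac1 and 67.3 ± 2.71 CPM in EGFP, SD, n = 3; log2 fold change -0.67, edgeR adjusted p = 0.000211), Apoa2 was at 0 in every library, and Trf had at most 2 reads in any library. The 5 cholangiocyte markers summed to 650.2 to 678.6 CPM (reads scaled to the TMM-adjusted library size) in Zac1 and 672.8 to 713.2 CPM in EGFP. Most of this came from Krt19 (means 252.5 and 257.3 CPM) and Spp1 (274.9 and 310.1 CPM), and Epcam had at most 2 reads in any library. The 10 hepatocyte markers summed to 340.5 to 354.6 CPM in Zac1 and 355.9 to 378 CPM in EGFP, mostly Hnf4a (206 and 201.3 CPM). Alb was at 34.7 and 34.6 CPM. Apoa1 (means 1.03 and 0.938 CPM) and Serpina1a (0.644 and 0.827 CPM) could be tested but were low, and Fgb and Cps1 were below the minimum for testing. The marker sums are not scaled for gene length, and the lists differ in size. The 9 fibroblast and stellate cell markers summed to 2.24 to 2.88 CPM in Zac1 and 0.604 to 1.01 CPM in EGFP, with Dcn, Lum and Lrat at 0 throughout; Col1a1, a collagen gene and the only one of them that could be tested, rose (1.89 ± 0.344 CPM in Zac1 and 0.649 ± 0.259 CPM in EGFP; log2 fold change 1.54, edgeR adjusted p = 0.0164). The part of these markers in the results below was not tested. Markers of endothelial cells (5 genes) and macrophages (5 genes) summed to at most 1.25 and 2.55 CPM in any library.

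None of the 10 genes changed past the test. Counts were scaled by TMM factors and compared with edgeR's quasi-likelihood test, adjusted over all 12130 genes tested, with a threshold of 0.05. By that rule 3.78% of all tested genes were called, 3.12% higher and 0.668% lower in Zac1, and 0 of the 10 genes were in either class. The differences were small in either direction: every fold change, Zac1 over EGFP, lay between 0.931 for Lats2 and 1.1 for Ankrd1, and every 95% interval lay between 0.86 and 1.2. DESeq2 and limma on log2(CPM + 1) also called 0 of the 10, where they called 428 and 447 of all 12130 tested genes. Voom with library quality weights called 1297 of all 12130, and of the 10 it called 1, Axl. At an unadjusted p under 0.05 there were 2, Ankrd1 and Axl, both higher, where 9.41% of all tested genes were higher and 6.43% lower at that level. The median log2 fold change of the 10 was 0.07, against -0.002 over all tested genes. Estimates were above 0 for 8 of the 10, where 6009 of all 12130 tested genes were above 0. Wwtr1 also turned positive, making 9, when scaled by upper quartiles or by the library total less Plagl1. It did so too with offsets for GC content or without Zac1 replicate 6. The count was 7 without Zac1 replicate 4, Zac1 replicate 5 or EGFP replicate 2.

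**Figure D1:**
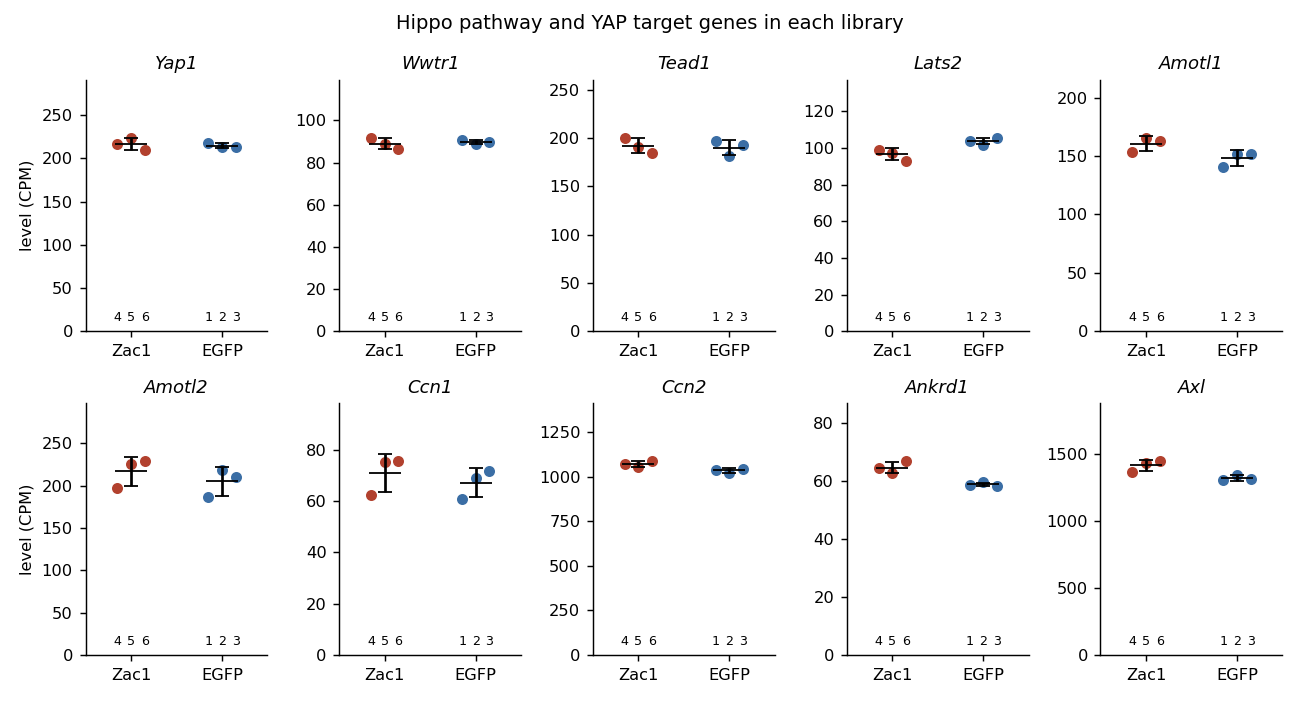
Level of each gene in CPM on an axis from 0 (points are single libraries, with the replicate number at the foot; black bars are the mean ± SD, n = 3), Zac1 left of EGFP. The groups lie close together in every panel, and Amotl2 and Ccn1 spread most within a group, with Zac1 replicate 4 and EGFP replicate 1 lowest.

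**Figure D2:**
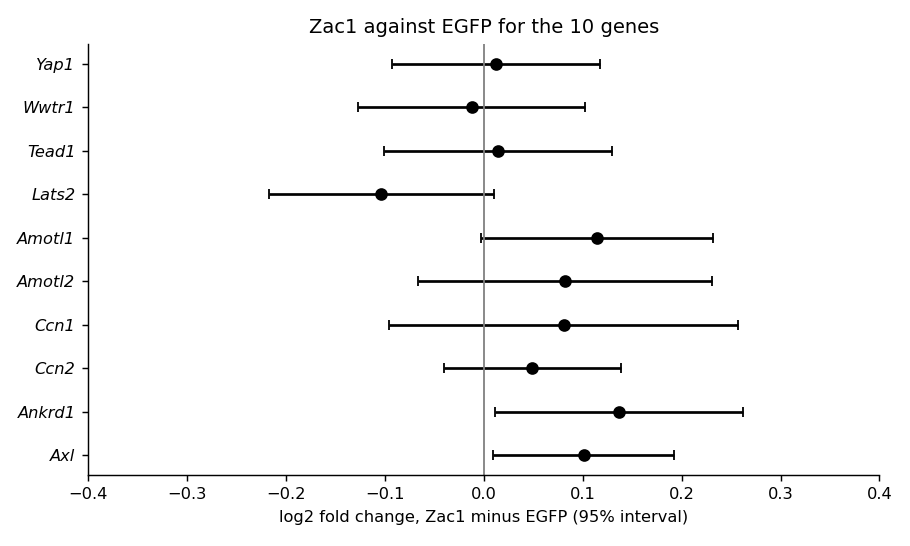
Log2 fold change of Zac1 minus EGFP from the edgeR fit (points) with its 95% interval (bars) for the 10 genes. Intervals span 0 for 8 genes, and those of Ankrd1 (0.01 to 0.26) and Axl (0.01 to 0.19) begin just above it.

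The co-activators and their DNA-binding partner showed the closest match between the groups. Yap1 (ENSMUSG00000053110; GRCm38 chromosome 9, 7931999 to 8004596, minus strand) encodes YAP. It was at 217, 223.8 and 209.3 CPM in the Zac1 libraries, against 218.2, 213.1 and 213.1 CPM in the EGFP libraries. The ranges overlap, and the highest and the lowest library are both Zac1. The log2 fold change was 0.01 (SE 0.05, 95% interval -0.09 to 0.12, edgeR adjusted p = 0.937). Wwtr1 (ENSMUSG00000027803; chromosome 3, 57455649 to 57575910, minus strand) encodes TAZ, the paralog of YAP. Its levels were 91.8, 88.8 and 86.4 CPM in Zac1 and 90.8, 88.9 and 89.6 CPM in EGFP. Here too the Zac1 libraries lie on both sides of the EGFP libraries. Its log2 fold change was -0.01 (SE 0.05, interval -0.13 to 0.10, edgeR adjusted p = 0.942). Tead1 (ENSMUSG00000055320; chromosome 7, 112679318 to 112906807, plus strand) encodes a TEAD factor that carries YAP and TAZ to DNA. It was at 200.4, 191.2 and 184.6 CPM in Zac1 and 196.6, 181.1 and 192.8 CPM in EGFP. Within each group the library that stood apart, Zac1 replicate 4 or EGFP replicate 1, was highest. For Tead1 the log2 fold change was 0.01 (SE 0.05, interval -0.10 to 0.13, edgeR adjusted p = 0.935).

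Levels of different genes were compared per kilobase of annotated exon, which understates genes with many unused exons. Yap1 was at 23.4 ± 0.786 CPM per kb in Zac1 and 23.2 ± 0.317 in EGFP (SD, n = 3), and Wwtr1 at 18.6 ± 0.568 and 18.8 ± 0.198. Yap1 thus supplied 55.7 ± 0.79% of the summed per-length level of the pair in Zac1 and 55.3 ± 0.134% in EGFP. Among the TEAD genes, Tead4 supplied 53.9 ± 1.51% in Zac1 and 53.4 ± 1.29% in EGFP. Tead1 came next, with 32.2 ± 1.49% in Zac1 and 33.8 ± 1.23% in EGFP. Tead3 was the least, at 2.07 ± 0.141% and 2.01 ± 0.135%. Unscaled for length, Tead1 was above Tead4, at means of 192.1 against 85.3 CPM in Zac1 and 190.2 against 79.8 CPM in EGFP. The exon lengths were 13570 bases for Tead1 and 3598 for Tead4. Tead2 held 11.9 ± 0.126% in Zac1 and 10.8 ± 0.561% in EGFP; its log2 fold change of 0.23 (SE 0.09, edgeR adjusted p = 0.213) did not pass. Tead3 (0.13) and Tead4 (0.10) did not pass either (edgeR adjusted p = 0.71 and 0.5).

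None of the LATS and angiomotin genes, which encode brakes on YAP, passed the test. Lats2 (ENSMUSG00000021959; chromosome 14, 57689662 to 57758388, minus strand) encodes a kinase that phosphorylates YAP and TAZ and is itself a YAP target. It was at 99.2, 97.5 and 93.1 CPM in Zac1 and 103.9, 101.9 and 105.6 CPM in EGFP. All 3 Zac1 libraries were below all 3 EGFP libraries, a pattern shown by 8.75% of all tested genes. The log2 fold change was -0.10 (SE 0.05, interval -0.22 to 0.01, edgeR adjusted p = 0.366); it ran from -0.13 to -0.08 over the 18 alternatives and passed in 0 of them. Its paralog Lats1, which has the same role, was at -0.12 (SE 0.07, edgeR adjusted p = 0.457), and Lats2 held 42 ± 1.7% of their summed per-length level in Zac1 and 41.6 ± 1.79% in EGFP. Amotl1 (ENSMUSG00000013076; chromosome 9, 14541966 to 14645056, minus strand) encodes an angiomotin-like scaffold of cell junctions that binds YAP and TAZ. Its levels were 153.2, 165.7 and 162.7 CPM in Zac1, against 140.8, 152.1 and 152.1 CPM in EGFP. The Zac1 libraries were all above the EGFP libraries, as for 11.9% of all tested genes, with Zac1 replicate 4 just above EGFP replicates 2 and 3. This gave a log2 fold change of 0.11 (SE 0.05, interval -0.003 to 0.23, edgeR adjusted p = 0.33). Amotl2 (ENSMUSG00000032531; chromosome 9, 102716672 to 102733418, plus strand) encodes a related scaffold and is a YAP target. It was at 197.1, 225.3 and 228.7 CPM in Zac1 and 186.4, 219 and 210 CPM in EGFP. The groups overlap, since Zac1 replicate 4 lies below 2 EGFP libraries. For Amotl2 the log2 fold change was 0.08 (SE 0.07, interval -0.07 to 0.23, edgeR adjusted p = 0.616). Amotl2 held 61.1 ± 1.44% of the per-length level of the 3 angiomotin genes in Zac1 and 60.4 ± 1.33% in EGFP, and Amotl1 28.3 ± 0.606% and 27.3 ± 0.557%. Amot, the least abundant with 10.6 ± 0.842% and 12.3 ± 0.811%, had a log2 fold change of -0.15 (SE 0.06, edgeR adjusted p = 0.24), which did not pass.

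The target genes Ankrd1, Ccn1, Amotl2 and Axl are shown with the 250 bases before their start, because YAP reaches DNA through TEAD factors and these promoters hold the letters of the TEAD core. The sequences are RefSeq's (build GRCm38.p6), 5′ to 3′ on the strand of the gene; capitals mark GGAATG or its reverse complement CATTCC. They cover chr19:36119845-36120094 (minus strand) for Ankrd1, chr3:145649986-145650235 (minus) for Ccn1, chr9:102717554-102717803 (plus) for Amotl2 and chr7:25788734-25788983 (minus) for Axl.
Ankrd1: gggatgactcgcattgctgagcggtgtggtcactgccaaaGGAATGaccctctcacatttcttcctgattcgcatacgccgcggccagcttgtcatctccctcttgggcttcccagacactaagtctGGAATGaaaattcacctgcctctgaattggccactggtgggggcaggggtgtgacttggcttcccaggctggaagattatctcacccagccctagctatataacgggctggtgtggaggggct
Ccn1: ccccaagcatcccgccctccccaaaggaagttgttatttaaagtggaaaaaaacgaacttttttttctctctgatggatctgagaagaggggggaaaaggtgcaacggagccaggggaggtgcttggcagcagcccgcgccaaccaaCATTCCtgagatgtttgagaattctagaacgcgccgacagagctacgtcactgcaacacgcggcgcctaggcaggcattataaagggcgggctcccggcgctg
Amotl2: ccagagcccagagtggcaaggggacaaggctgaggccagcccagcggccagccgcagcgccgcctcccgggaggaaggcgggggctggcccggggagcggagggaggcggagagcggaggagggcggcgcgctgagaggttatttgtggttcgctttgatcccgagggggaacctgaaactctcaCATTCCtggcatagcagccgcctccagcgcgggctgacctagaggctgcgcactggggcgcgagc
Axl: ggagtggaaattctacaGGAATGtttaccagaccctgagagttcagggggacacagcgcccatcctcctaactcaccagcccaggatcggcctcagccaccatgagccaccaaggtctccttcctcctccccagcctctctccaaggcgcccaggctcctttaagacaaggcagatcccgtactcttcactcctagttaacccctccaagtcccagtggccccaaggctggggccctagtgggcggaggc
The first base of the core lay 210 and 123 bases before the start in Ankrd1, 103 in Ccn1, 65 in Amotl2 and 233 in Axl. Starts are those of the RefSeq records and can differ from the gene bounds given with each gene. The printed windows of Ankrd1 and Amotl2 lie within the bounds given for these genes. So do the records of Amotl1 and Lats2. In the window from 250 bases before to 50 after the start, RefSeq promoters were found for 8 of the 10 genes in 10 records. For Tead1 and Ccn2 no record was found, so their promoters were not searched. The TEAD core was present in 8 of the 10 records, the exceptions being Amotl1 and 1 of 2 records of Lats2. The 2 records of Wwtr1 overlap and share their core. Over all 32851 promoter records, 14.7% held it. The GC-rich palindrome GGGGCCCC, described as bound by Zac1, was in 0 of the 10 records and in 1.08% of all, and the CArG box of the serum response factor in 0 of the 10 and in 1.63% of all. A match is a run of letters and says nothing of binding.

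Of the secreted targets, Ccn2 varied little between libraries and Ccn1 more. Ccn2 (ENSMUSG00000019997; chromosome 10, 24595442 to 24598683, plus strand) encodes CTGF, a matricellular protein and standard readout of YAP. It was at 1072, 1054 and 1085 CPM in Zac1 and 1039, 1020 and 1045 CPM in EGFP. Every Zac1 library was above every EGFP library, by little. The log2 fold change was 0.05 (SE 0.04, interval -0.04 to 0.14, edgeR adjusted p = 0.614). Ccn1 (ENSMUSG00000028195; chromosome 3, 145646976 to 145649981, minus strand) encodes CYR61, a related matricellular protein. Its levels were 62.3, 75.2 and 75.5 CPM in Zac1, against 61, 69 and 71.7 CPM in EGFP. The groups overlap, and the lowest library of each is again Zac1 replicate 4 and EGFP replicate 1. For Ccn1 the log2 fold change was 0.08 (SE 0.08, interval -0.10 to 0.26, edgeR adjusted p = 0.688), the widest interval of the 10. Ccn2 made up 90.3 ± 0.81% of the per-length level of the 6 CCN genes in Zac1 and 90.3 ± 0.752% in EGFP, and Ccn1 8.48 ± 0.851% and 8.31 ± 0.637%. Ccn4 had a log2 fold change of -0.09 (SE 0.09, edgeR adjusted p = 0.686). Ccn3 had 4 to 6 reads in the Zac1 libraries and 2 to 3 in the EGFP libraries, Ccn5 at most 5 in any library, and Ccn6 0 in every library; these 3 were below the minimum for testing.

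Ankrd1 and Axl had the smallest p-values of the 10. Ankrd1 (ENSMUSG00000024803; chromosome 19, 36111961 to 36120099, minus strand) encodes a nuclear and sarcomeric ankyrin-repeat protein. It was at 64.6, 62.6 and 66.7 CPM in Zac1 and 58.6, 59.5 and 58.4 CPM in EGFP. The groups did not overlap. The log2 fold change was 0.14 (SE 0.06, interval 0.01 to 0.26, edgeR adjusted p = 0.266). It stayed between 0.11 and 0.16 with any 1 library left out. Axl (ENSMUSG00000002602; chromosome 7, 25757273 to 25788705, minus strand) encodes a receptor tyrosine kinase of the TAM family. Its levels were 1365, 1431 and 1441 CPM in Zac1, against 1304, 1340 and 1307 CPM in EGFP. The groups did not overlap, and Zac1 replicate 4 was the Zac1 library nearest to EGFP. Axl had a log2 fold change of 0.10 (SE 0.04, interval 0.01 to 0.19, edgeR adjusted p = 0.257). Axl passed with voom and quality weights (adjusted p = 0.0386), which called 1297 of all 12130 tested genes. It also passed in edgeR without Zac1 replicate 4 and EGFP replicate 1 together (adjusted p = 0.0417), which called 1461 of 12188. That fit shared the variance almost wholly over genes. With offsets for GC content the log2 fold change of Axl was 0.06 (edgeR adjusted p = 0.409). Axl made up 99.3 ± 0.0931% of the per-length level of the 3 TAM receptor genes in Zac1 and 99.5 ± 0.021% in EGFP. Tyro3, the next receptor, was at 10.8 ± 1.51 CPM in Zac1 and 8.02 ± 0.337 CPM in EGFP (log2 fold change 0.44, SE 0.13, edgeR adjusted p = 0.0853) and did not pass. Mertk had 7, 8 and 14 reads in the Zac1 libraries and 0, 2 and 0 in the EGFP libraries, below the minimum. Of the TAM ligands, Gas6 had 0 reads in every library and Pros1 did not pass (-0.07, edgeR adjusted p = 0.791).

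In total, the Zac1 libraries lay wholly above the EGFP libraries for 4 of the 10 genes (Amotl1, Ccn2, Ankrd1 and Axl) and wholly below for 1 (Lats2), as did 11.9% and 8.75% of all tested genes. The order of the 10 by level per length ran from Ccn2 (374 CPM per kb in Zac1, 362 in EGFP) and Axl (281 and 262), both in the top 1% of 12116 ranked genes, down to Lats2 in Zac1 and to Tead1 in EGFP. Ccn2 ranked 62nd in Zac1 and 65th in EGFP, Axl 91st and 105th. Ccn1 (35.2 in Zac1, 33.3 in EGFP) and Amotl2 (34.5 and 32.6) followed, and their library ranges overlapped in both groups. Below Yap1 came Ankrd1 (22.4 in Zac1, 20.4 in EGFP), whose range met that of Yap1 in Zac1 and lay apart from it in EGFP. Wwtr1 stood apart from its neighbours in both groups. Amotl1 (15.9 and 14.7), Tead1 (14.1 and 14) and Lats2 (13.9 and 14.9) closed the order; Tead1 and Lats2 overlapped in Zac1, and Lats2 with Amotl1 and Amotl1 with Tead1 in EGFP.

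Several of the genes differed more between libraries of one group than between the groups. Ccn1 was lower in Zac1 replicate 4 than in the mean of the other Zac1 libraries (a log2 difference of -0.27) and lower in EGFP replicate 1 than in the other EGFP libraries (-0.21), while the Zac1 mean minus the EGFP mean was 0.08. For Amotl2 these values were -0.20, -0.20 and 0.08. For Amotl1 they were -0.10, -0.11 and 0.11, so its offsets did not exceed the group difference. Amotl1, Amotl2, Ccn1 and Axl were lowest in both of those libraries, 4 of the 10 genes, and Wwtr1 and Tead1 were highest in both. Of all tested genes 22.3% were lowest in both and 20.3% highest in both. Ccn2, Ankrd1 and Yap1 showed no such offset, with values between -0.01 and 0.03. Other YAP targets lowest in both libraries, chosen after their values were seen, included Gadd45a (-0.37 in Zac1 replicate 4 and -0.34 in EGFP replicate 1), Tgm2 (-0.23 and -0.23) and Cav1 (-0.16 and -0.14), and among targets of the serum response factor Cnn2 (-0.32 and -0.31) and Zyx (-0.29 and -0.31). Of the YAP and TAZ signature 4 of 14 tested genes were lowest and 1 highest in both. Of the further YAP targets 6 of 15 were lowest and 3 highest. Of the list of the serum response factor, its co-activators and their targets, 7 of 14 were lowest and 2 highest. The median offsets of the 3 lists lay between -0.08 and -0.002. Without these 2 libraries the log2 fold changes were 0.10 for Ccn1, 0.09 for Amotl2 and 0.11 for Amotl1 (edgeR adjusted p = 0.338, 0.307 and 0.167).

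**Figure D3:**
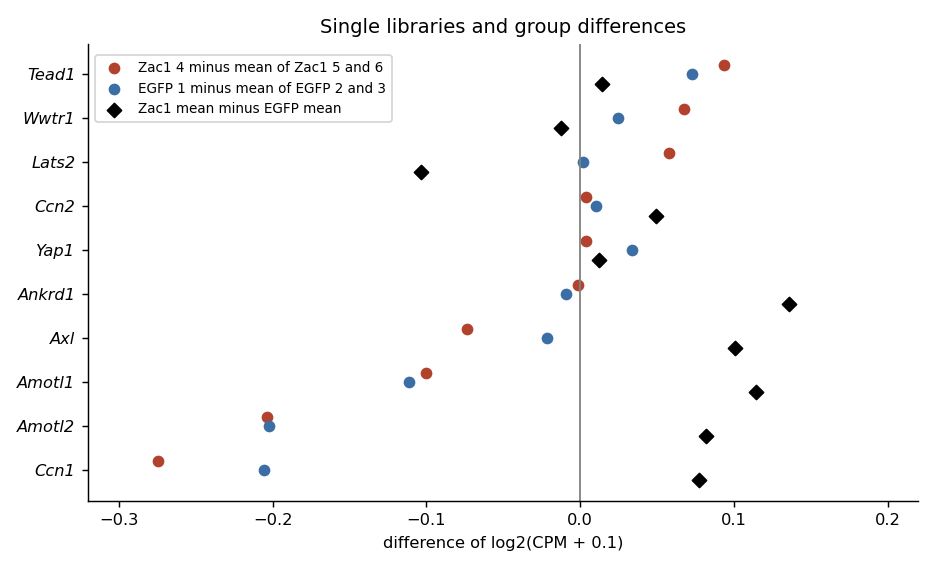
For each gene, the level in Zac1 replicate 4 against the other Zac1 libraries (red), in EGFP replicate 1 against the other EGFP libraries (blue) and the difference of the group means (black diamonds), all as differences of log2(CPM + 0.1). For Ccn1 and Amotl2 both single-library offsets, -0.27 to -0.20, are larger in size than the group difference of 0.08.

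Around the 10 genes, 110 others of the pathway and its outputs were examined in 8 lists, and 91 could be tested. Of these, 4 rose (Map4k2, Dock5, Thbs1 and Srf) and 1 fell (Marcks), where 3.12% of all tested genes rose and 0.668% fell. The median log2 fold change of the 91 was 0.055, and 58 estimates were above 0, where 6009 of all 12130 tested genes were. Of the 19 kinases and adaptors of the Hippo core, 1 rose and 0 fell, with a median of -0.03. That gene, Map4k2, encodes a kinase of the family that can activate LATS beside the MST kinases; it was at 32.7, 37.6 and 38.5 CPM in Zac1 and 25.5, 30 and 30.3 CPM in EGFP (log2 fold change 0.34, SE 0.09, edgeR adjusted p = 0.0465). The MST kinase genes Stk3 (-0.03) and Stk4 (-0.01) and the scaffold gene Sav1 (-0.07), named after their values were seen, did not pass. Of 22 tested upstream regulators and junction scaffolds 0 passed in either direction, where 6 had an unadjusted p under 0.05 (over all tested genes 9.41% did with a higher and 6.43% with a lower level in Zac1); the smallest p were those of Dlg5 (0.16, edgeR adjusted p = 0.138) and Ajuba (0.13, edgeR adjusted p = 0.17). Of 5 tested TEAD and VGLL genes 0 passed and 1, Tead2, had an unadjusted p under 0.05; Vgll3, a TEAD co-factor, was at 0.22 (edgeR adjusted p = 0.369).

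Of 14 tested genes of a YAP and TAZ signature described in human cancers, 1 rose and 0 fell, with a median of 0.08. Dock5, an activator of the small GTPase Rac, was at 67.8, 71.3 and 69.1 CPM in Zac1 and 58.3, 60.6 and 57.6 CPM in EGFP (log2 fold change 0.24, SE 0.06, edgeR adjusted p = 0.0347). Of 15 further targets, 1 rose and 1 fell, with a median of 0.07. The matricellular gene Thbs1 was at 20, 21.8 and 20.5 CPM in Zac1 and 14.6, 16.8 and 15.1 CPM in EGFP (log2 fold change 0.42, SE 0.09, edgeR adjusted p = 0.0205). Marcks, an actin-binding membrane protein, was at 84.8, 85.9 and 81.6 CPM in Zac1 and 96.8, 100.8 and 98.3 CPM in EGFP (-0.23, SE 0.05, edgeR adjusted p = 0.0254). The growth-related targets Ccnd1 (0.09, edgeR adjusted p = 0.261), Myc (0.03, edgeR adjusted p = 0.891) and Sox9 (0.11, edgeR adjusted p = 0.366), named after their values were seen, did not pass. Of 14 tested genes of the serum response factor and its MRTF co-activators, which share several outputs with YAP, 1 rose and 0 fell, with a median of 0.08. It was Srf itself, at 44.5, 50.2 and 51.4 CPM in Zac1 and 38.7, 41.8 and 39.6 CPM in EGFP (0.28, SE 0.07, edgeR adjusted p = 0.0449). Of these 14 genes 6 had an unadjusted edgeR p under 0.05, and 12 estimates were above 0. An unadjusted p under 0.05 was also held by 5 of the 14 signature genes, 4 of the 15 further targets and 4 of the 19 Hippo core genes. Over all 12130 tested genes 1921 had such a p, and 6009 estimates were above 0.

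The fold changes of these 5 genes kept their sign with any 1 library left out (Map4k2 0.27 to 0.41, Dock5 0.22 to 0.26, Thbs1 0.38 to 0.48, Marcks -0.24 to -0.21 and Srf 0.24 to 0.34 on the log2 scale), and without Zac1 replicate 4 all 5 passed. Their calls depended on the libraries used, as did those over all genes, which numbered 459 with all libraries and 206 to 236 without the libraries named next. Each was lost without EGFP replicate 3, Zac1 replicate 5 or Zac1 replicate 6, with adjusted p up to 0.217 for Map4k2, 0.223 for Dock5, 0.134 for Thbs1, 0.132 for Marcks and 0.228 for Srf. Without EGFP replicate 1, Map4k2, Dock5, Thbs1 and Srf were lost (0.127, 0.0713, 0.0512 and 0.101), and without EGFP replicate 2, Map4k2, Dock5, Marcks and Srf (0.0646, 0.0586, 0.0897 and 0.0609). Fold changes followed GC content across all genes (rho 0.395 by rank, over genes that are not independent of each other), and with GC offsets Srf was lost (0.209) at a log2 fold change of 0.14. Map4k2 and Srf also missed the threshold with a minimum mean of 50 reads (adjusted p = 0.0702 and 0.0645) and with limma on log2(CPM + 1) (0.0563 and 0.0526), and Dock5 and Srf with DESeq2 (0.0514 and 0.05).

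**Figure D4:**
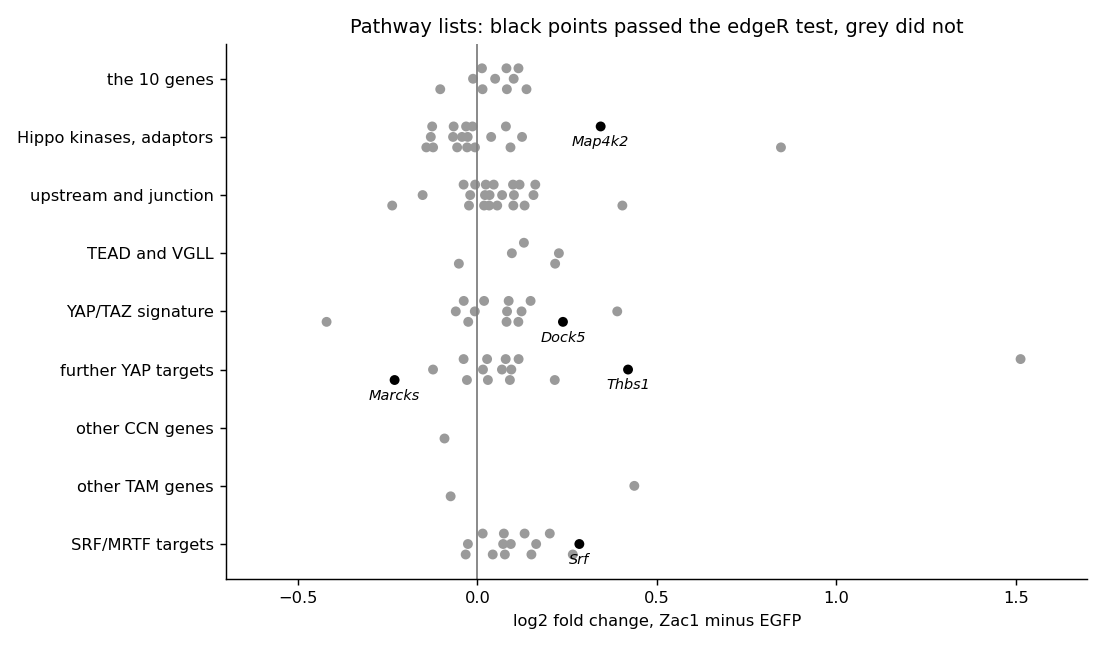
Log2 fold change of Zac1 minus EGFP for each tested gene of the 10 and of the 8 surrounding lists; black points passed the edgeR test (adjusted p under 0.05), grey points did not. The 10 genes lie between -0.10 and 0.14, and the 5 named genes are those that passed.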

How the data were processed

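The file the authors deposited holds counts of reads for each gene, in a separate column for each library. The submitters' processing notes list STAR, HTSeq, FastQC and DESeq2; the sources used here give neither versions nor build and annotation. By the protocols in the labels, the library kit was directional; whether counting used strand is not stated, and genes overlapping the 10 held at most 55 reads in all. The table is named as normalized, but its values behave as counts: whole numbers with unequal totals and 0 of the numbers from 1 to 40 absent in any library. Symbols, coordinates and exon lengths came from GENCODE M21 (GRCm38), which named 49326 of 49585 IDs.

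Genes whose counts averaged at least 10 were compared, Zac1 minus EGFP and two-sided, by edgeR 4.0.16 (glmQLFit, glmQLFTest; TMM, prior count 0.125; Benjamini-Hochberg) in R 4.3.3. The SE is the log2 fold change over the square root of F; 95% intervals are not adjusted over genes. CPM use TMM-scaled totals. Alternatives used DESeq2 1.42.0 and limma 3.58.1. Replicates differed by more than sampling noise (chi-square per degree of freedom 2.2 to 8.22). Named are the 10 genes, their paralogs, every listed gene that passed, and otherwise the 2 smallest p of a list. Genes and lists were chosen with earlier results of these data known, and 1 gene of the lists is not reported here and left out of their counts.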

Additional observations from a re-analysis of the deposited data

How the results depend on the processing

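The 18 alternatives changed scaling, filter, test, variance, GC offsets or libraries. Over all genes, 459 were called; the count was 979 with no filter on low counts, 241 with a minimum mean of 50 reads, 1297 with voom and quality weights, 1461 without Zac1 replicate 4 and EGFP replicate 1 together, and 206 to 963 with 1 library left out. Of the 10 genes 0 were called, and 1, Axl, with voom or without those 2 libraries; with 1 library left out the count was 0. Of the surrounding pathway genes 5 were called, against 14 with no filter, 15 with voom, 18 without the 2 libraries, 3 with a minimum mean of 50 reads, DESeq2 or limma on log2(CPM + 1), and 0 to 14 with 1 library left out. The fits with no filter and without both libraries shared the variance almost wholly over genes, so their p-values are no firmer evidence. Of the 10 genes, Ccn1 and Amotl2 moved most with single libraries: their log2 fold changes were 0.17 and 0.15 without Zac1 replicate 4 and 0.02 and 0.02 without EGFP replicate 1, and Amotl2 was at 0.01 with GC offsets; the cause was not tested. Yap1, Wwtr1 and Tead1 kept their sign in 17, 14 and 16 of the 18. No paired analysis was run, because the groups share no replicate number and the labels give no pairing. A block by the order of the libraries was not fitted, and whether Zac1 replicate 4 and EGFP replicate 1 share a batch was not tested.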
